A study of Mus musculus with 15 samples.

Results

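Synaptophysin is the most used marker of neuroendocrine tumors, and the 12 stomach tumors of this mouse model differed widely in the message of its gene, Syp. The 4 tumors with the highest and the 4 with the lowest share of Syp counts were set against each other over all other genes, which takes in 8 of the 15 libraries. The share is the Syp count divided by the sum of the library's counts. The groups were thus chosen by the measured Syp counts of these libraries, so every difference between them is a description and carries no test. The Syp-high tumors were antrum 1, lesser curvature 1, lesser curvature 3 and greater curvature 1. The Syp-low tumors were corpus 3, antrum 2, corpus 1 and greater curvature 2. Numbers after a site are the replicate numbers of the labels.

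RNA from bulk stomach tissue was sequenced for 3 normal samples and for 3 tumors each of the antrum, the corpus, and the greater and the lesser curvature sides of the cardia. All 15 samples, the normals included, carry one genotype label on the C57BL/6 strain, Pou2f3-CreERT with the floxed alleles Rb1fl/fl and Trp53fl/fl and the Cre-dependent LSL-MycT58A. All are labelled 7 to 8 weeks old and treated with tamoxifen at 50 mg/kg into the abdomen, with a time of 5 weeks. Pou2f3 drives a tamoxifen-dependent Cre in tuft cells, rare sensory cells of the gut epithelium, where Cre removes the tumor suppressors Rb1 and Trp53 and switches on a stabilized Myc. The labels call the replicates biological without saying whether they are separate animals, and they give neither the sex nor the stomach region of the normal samples. P-values below therefore measure only the spread between these samples.

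Synaptophysin is a membrane protein of synaptic vesicles and of the small clear vesicles of endocrine cells. Neuroendocrine cells store peptides in dense-core granules, whose granins are the other common marker, and release them with the vesicle fusion proteins that neurons use. Their gene program is set by factors such as Neurod1 and Insm1, while Rest silences neuronal genes in other cells and Notch signaling, through Hes1, holds the program back. In mixed tumors of the stomach, neuroendocrine and glandular cells lie side by side. In bulk tissue, fewer cells of a type and less RNA per cell cannot be told apart, which holds for every value below.

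Syp made up 149.6 counts per 1e+06 counts of the column total in antrum 1, 135.5 in lesser curvature 1, 94.7 in lesser curvature 3 and 85.9 in greater curvature 1. It made up 50.4 in corpus 3, 39.2 in antrum 2, 10.8 in corpus 1 and 5.19 in greater curvature 2. The normals held 15.6, 10.5 and 13.6, so the 2 lowest tumors were at or under the normal level, while the other 2 Syp-low tumors were well above it. The tumors just outside the groups were antrum 3 at 80.4, next below the Syp-high group, and lesser curvature 2 at 63.7, next above the Syp-low group. Greater curvature 3 at 73.9 and corpus 2 at 64.3 complete the 4 middle tumors. Ranking by library sizes scaled with TMM, edgeR's correction for library composition, gave the same 8 tumors, and ranking by TPM put antrum 3 in the place of greater curvature 1. Levels below are in CPM, counts per 1e+06 of the TMM-scaled library size.

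**Figure D1:**
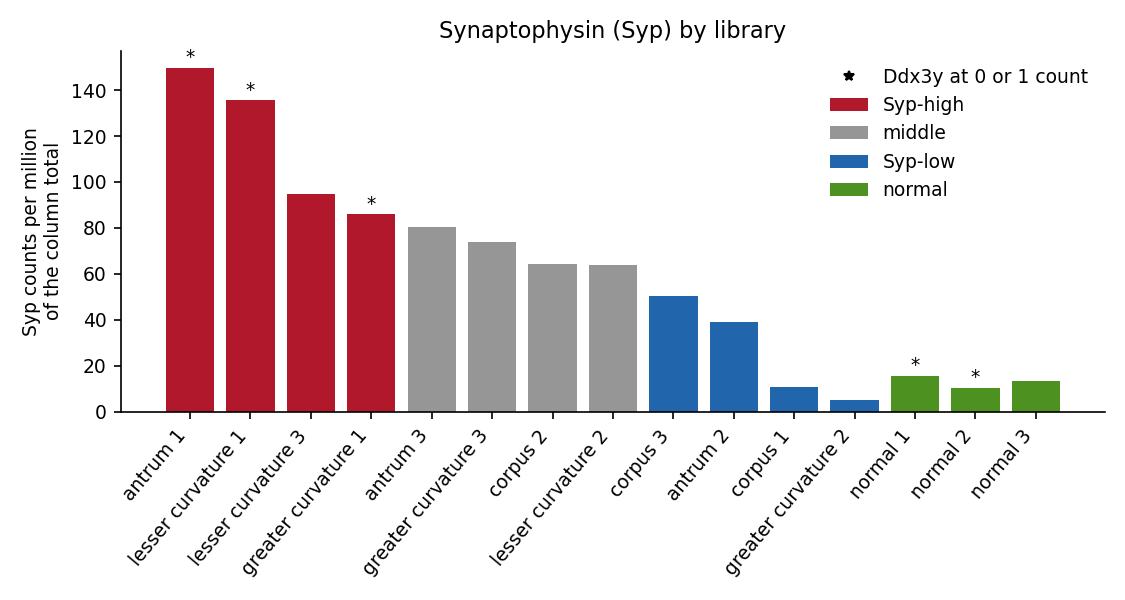
Syp counts per 1e+06 of the column total in each of the 15 libraries, colored by group; stars mark libraries with 0 or 1 count of Ddx3y. The bars fall from 149.6 in antrum 1 to 5.19 in greater curvature 2, and 3 of the 4 Syp-high bars carry a star.

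Other properties of the libraries moved with the groups. Ddx3y, an RNA helicase gene of the Y chromosome, had 0, 0 and 1 count in antrum 1, lesser curvature 1 and greater curvature 1, which are 3 of the 4 Syp-high tumors and all carry replicate number 1. It had 529 to 1130 counts in the other 9 tumors, 0 in normals 1 and 2 and 829 in normal 3. Syp level, the Y-linked message and the replicate number thus overlapped in part: lesser curvature 3 was Syp-high with 1078 counts of Ddx3y, and corpus 1 was Syp-low with replicate number 1 and 816 counts. Many counts are therefore also given for the 9 tumors with Ddx3y alone, ranked anew. That ranking sets lesser curvature 3, antrum 3, greater curvature 3 and corpus 2 against the same 4 Syp-low tumors. Its upper tumors ran from 64.3 in corpus 2 to 94.7 in lesser curvature 3 on the Syp scale above. The Syp-high tumors ran from 85.9 in greater curvature 1 to 149.6 in antrum 1, so the ranking anew has a narrower gap in Syp. On the first principal component of all genes, with 46.9% of the variance, corpus 1 lay at -86.3 and greater curvature 2 at -84.9, within the normals' range of -124 to -62.1, while the Syp-high tumors lay at 60.4 to 151. Counts are therefore also given without these 2 tumors. Depth ran from 7957165 counts in lesser curvature 2, a middle tumor, to 21564972 in greater curvature 2.

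Of 16223 genes tested other than Syp, 1246 (7.68%) were higher and 2325 (14.3%) were lower in the Syp-high tumors by a fixed rule, which asks that all 4 Syp-high tumors lie beyond all 4 Syp-low ones and that the mean log2 CPM differ by at least 1, a 2-fold change. "Higher" and "lower" below mean past this rule. The median gene differed by 0.01 log2. Scaling by column totals in place of TMM gave 2325 higher and 1751 lower genes and moved that median to 0.32, so the share of higher genes among those past the rule was 57.0% by totals and 34.9% by TMM. The TPM table gave 1729 higher and 1530 lower genes, with a median of 0.27. The excess of lower over higher genes is thus turned around by the scaling, and gene changes are given relative to the TMM median.

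The 4 middle tumors had a mean between the groups for 1220 of the 1246 higher genes and 2299 of the 2325 lower genes. Genes picked for a gap between 2 groups tend to place other tumors inside it. The middle tumors were also set by their Syp rank, so these counts are no independent support. At the normal end, the normals' mean lay beyond the Syp-low mean for 816 of the higher and 1587 of the lower genes. Corpus 1 and greater curvature 2 both lay beyond the other 2 Syp-low tumors for 901 and 1570 of them. Both groups hold 1 antrum and 1 greater curvature tumor, and the rule itself fixes the direction between them. The difference reached 2-fold between antrum 1 and antrum 2 for 1004 of the higher and 2192 of the lower genes, and between greater curvature 1 and 2 for 1081 and 1960. Without corpus 1 and greater curvature 2 the rule gave 829 higher (5.11%) and 2113 lower genes (13%), of which 732 and 2015 were among the first set. Among the 9 tumors with Ddx3y it gave 283 higher (1.74%) and 382 lower genes (2.35%), sharing 219 and 330. Counts of list members among these 9 tumors are to be read against these shares, which are smaller than the 7.68% and 14.3% given above. Leaving out corpus 3 alone raised the higher genes to 1984 (12.2%), greater curvature 1 alone to 1768 (10.9%) and antrum 2 alone to 1494 (9.21%). With a library left out, fewer tumors must not overlap, which makes that part of the rule easier to meet. List counts with a library left out are to be read against these shares.

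**Figure D2:**
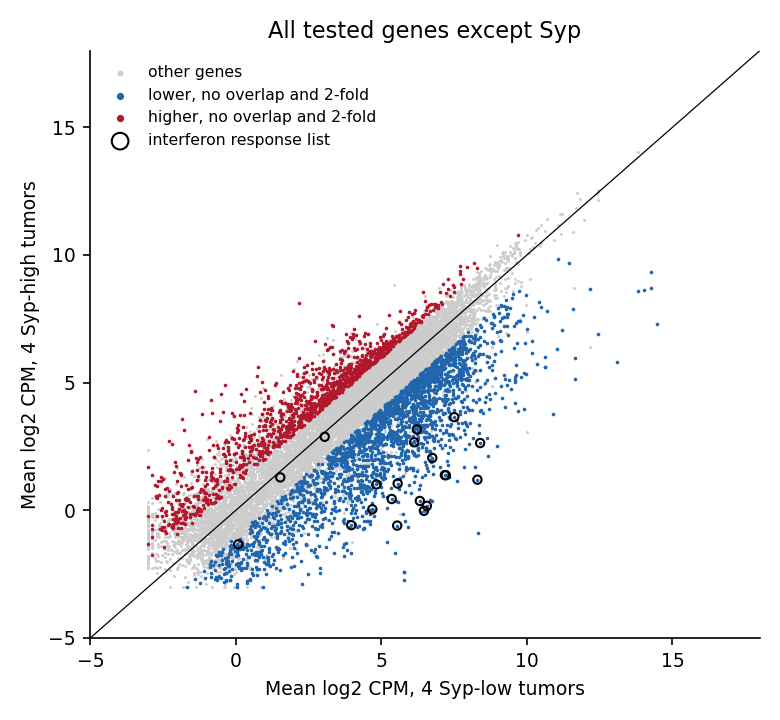
Mean log2 CPM of each tested gene in the 4 Syp-low tumors (x axis) and the 4 Syp-high tumors (y axis), with genes past the rule in red (1246 higher) and blue (2325 lower); the line marks equal levels. Circles mark the 20 tested interferon response genes, of which 17 lie among the lower genes.

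Genes of the synaptic vesicle and its release machinery were higher in part. Of 44 tested list members, 14 were higher and 2 lower, with a median difference of 1.48 log2. The higher ones included Syt2, Syt4, Syt11, Syn2, Rab3a, Unc13a, Cplx1, Cplx2, Rims2, Cadps, Bsn, Pclo and Napb, which span calcium sensors, vesicle tethering, priming and the active zone. Cplx1, complexin 1, clamps and times vesicle fusion; it stood at 220, 181, 144 and 87.8 CPM in antrum 1, lesser curvature 1, lesser curvature 3 and greater curvature 1. It stood at 50.4, 27.2, 4.59 and 1.43 CPM in corpus 3, antrum 2, corpus 1 and greater curvature 2, so the groups did not overlap and the order of the tumors was that of Syp. The difference was 3.90 log2, and 3.38 among the tumors with Ddx3y. Syn2, a synapsin that tethers vesicles, was at 13.2 to 26.7 CPM against 0.712 to 5.89 CPM, a difference of 3.27 log2.

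The lower members were Syt13 and Rab27b. Rab27b, a GTPase of granule secretion also used by gastric gland cells, was at 3.64 to 34.4 CPM in the Syp-high and 115 to 270 CPM in the Syp-low tumors, and at 217 to 379 CPM in the normals. Snap25, the fusion protein of the plasma membrane, was at 70.5 to 207 CPM against 4.99 to 85.4 CPM, and corpus 3 overlapped the Syp-high group. Within Syp's own family the members parted. Syngr3, a synaptogyrin of neurons, was at 4.18 to 16.2 CPM against 0.306 to 3.50 CPM, while Sypl, the family member of wide tissue expression, was lower at 38.4 to 101 CPM against 149 to 216 CPM. The vesicle list had 8 higher and 0 lower members among the tumors with Ddx3y, where 1.74% of all genes were higher. Without corpus 1 and greater curvature 2 it had 9 higher and 2 lower members, with a median of 0.76 log2. Without corpus 3 alone 24 were higher, where 12.2% of all genes were.

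Granin genes did not follow Syp closely. Of 15 tested granins and prohormone processing genes, 2 were higher and none lower. Chga, chromogranin A of dense-core granules, was at 3403 and 4969 CPM in antrum 1 and greater curvature 1 but at 408 and 477 CPM in lesser curvature 1 and 3. In the Syp-low tumors it was at 1844 CPM in corpus 3, 562 in corpus 1, 320 in antrum 2 and 187 in greater curvature 2. The groups overlapped, and corpus 3 exceeded both lesser curvature tumors of the Syp-high group. Marker genes of pancreatic acinar cells summed to 3090 and 17424 CPM in antrum 1 and greater curvature 1. They summed to 7.62 and 26.4 CPM in lesser curvature 1 and 3 and to 523 to 3153 CPM in the Syp-low tumors. The part of pancreatic tissue in the Chga values was not tested. Scg3, a granin that binds granule membranes, was higher, at 55.0 to 132 CPM against 1.83 to 53.0 CPM, with greater curvature 1 and corpus 3 nearly touching. Cartpt, a neuropeptide precursor, was the other higher member, at 1.05 to 2.30 CPM against 0 to 0.991 CPM, and its normals were above both at 7.68 to 19.1 CPM. The list's median of 0.99 log2 turned to -0.15 without corpus 1 and greater curvature 2 and was -0.23 between the antrum tumors.

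Of 33 neuroendocrine and neural transcription factors, 8 were higher, 1 was lower and the median difference was 1.86 log2. The higher ones were Insm1, Neurod2, Sox1, Sox11, Pou4f1, Hes6, Nhlh1 and Nhlh2, and the lower one was Isl1. Insm1, a zinc finger factor needed for endocrine cell formation, was at 179, 132, 106 and 81.1 CPM in antrum 1, lesser curvature 1, lesser curvature 3 and greater curvature 1. It was at 48.2, 29.5, 9.64 and 2.55 CPM in corpus 3, antrum 2, corpus 1 and greater curvature 2, again in the order of Syp, and at 17.4, 1.66 and 10.1 CPM in the normals. Its difference was 3.10 log2, 1.66 without corpus 1 and greater curvature 2. Neurod1, a helix-loop-helix factor of endocrine cells and neurons, overlapped between the groups. It was at 23.5 to 91.2 CPM against 0.560 to 41.5 CPM, with antrum 2 inside the Syp-high range.

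Sox1, a factor of neural progenitors, had the largest difference of any named gene on the higher side, 6.09 log2. It stood at 79.1 CPM in lesser curvature 1, 41.0 in lesser curvature 3, 11.6 in antrum 1 and 11.1 in greater curvature 1, against 0 to 3.68 CPM in the Syp-low tumors. Nhlh2, a helix-loop-helix factor of developing neurons, was at 31.6 to 107 CPM against 0.395 to 24.1 CPM, a difference of 4.87 log2, with antrum 2 alone above 1 CPM in its group. Among the 9 tumors with Ddx3y only 1 of the 33 factors was higher and none was lower, and neither Insm1 (2.28 log2) nor Sox1 (4.33 log2) nor Nhlh2 (3.26 log2) met the rule there, since their values overlapped. Without corpus 1 and greater curvature 2, 8 were higher and 2 lower. Without greater curvature 1 or antrum 2 alone 15 or 14 were higher, where 10.9% or 9.21% of all genes were.

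**Figure D3:**
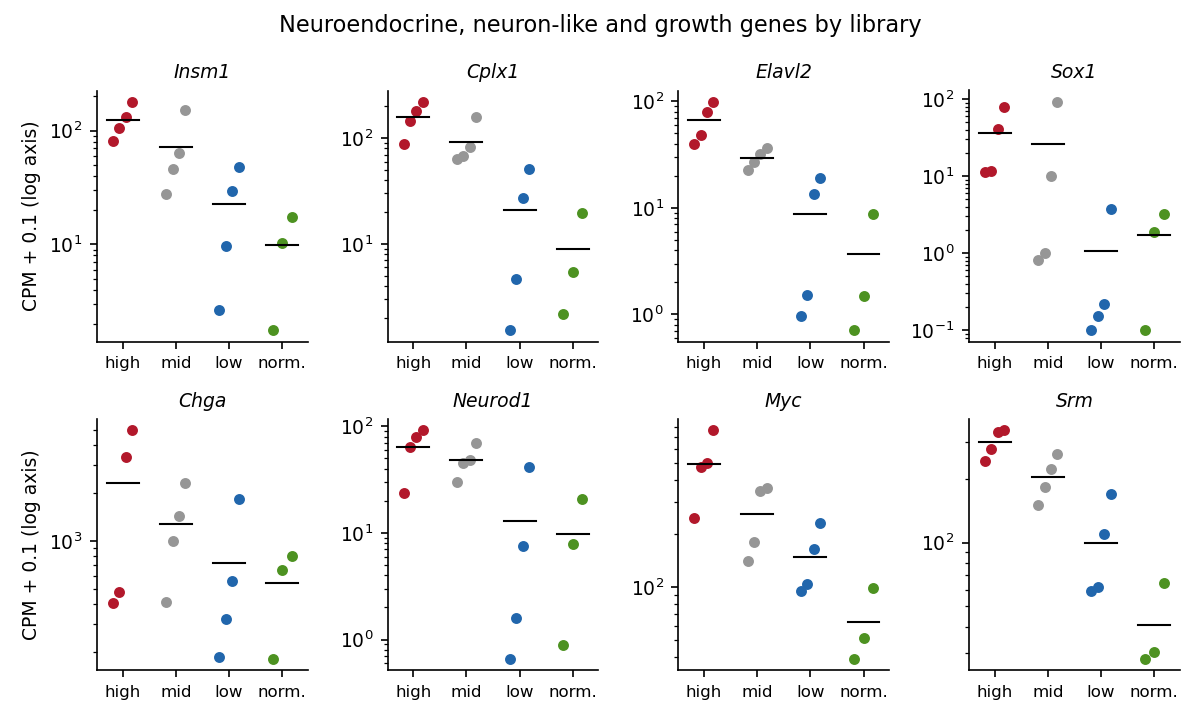
CPM plus 0.1 (log axis) of 8 genes in each library of the 4 Syp-high, 4 middle, 4 Syp-low and 3 normal samples; each dot is a library and each line a group mean. Insm1, Cplx1, Elavl2, Sox1, Myc and Srm do not overlap between the Syp-high and Syp-low tumors, whereas Chga and Neurod1 do.

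Neuron-like genes made up the list with the most higher members: 21 of 46 were higher and 3 lower, with a median of 2.21 log2. Elavl2, an RNA-binding protein of neurons, was at 39.7 to 98.5 CPM against 0.870 to 19.1 CPM, a difference of 3.80 log2. Uchl1, a deubiquitinase abundant in neurons and neuroendocrine cells, was at 50.5 to 178 CPM against 4.18 to 46.8 CPM. Ncam1, the adhesion molecule CD56, was at 32.0 to 79.8 CPM against 10.8 to 30.5 CPM, a narrow gap between greater curvature 1 and antrum 2. Among the tumors with Ddx3y, where 1.74% of all genes were higher, 12 members were higher and 1 lower. Without corpus 1 and greater curvature 2, 19 were higher and 3 lower. Without greater curvature 1 alone 32 were higher, where 10.9% of all genes were.

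Among the 12 largest differences that the naming rule brought up on the higher side were 2 neuronal channel genes. Gabra5, a subunit of the GABA-A receptor, was at 13.3 to 26.1 CPM against 0.0791 to 2.27 CPM, a difference of 5.17 log2. Htr3a, a subunit of the serotonin-gated channel, was at 29.2 to 50.9 CPM against 0.459 to 5.46 CPM, a difference of 4.53 log2, and it also met the rule among the tumors with Ddx3y. Beside Sox1 and Nhlh2, the others were Lamp5, Gpr26, Shisa8, Xlr3b, Cdhr1, Irs4, Nell2 and Hrh3, at 4.27 to 5.44 log2. Of 14 tested small cell surface and Notch inhibitor genes 2 were higher, Dll3 and Lsamp, and none lower, with a median of 0.60 log2. Dll3, an inhibitory Notch ligand made by neuroendocrine cancers, was at 0.627 to 8.88 CPM against 0.0791 to 0.432 CPM. Genes that mark enteric neurons, which the tissue could also hold, summed to 258 to 364 CPM in the Syp-high and 45.1 to 170 CPM in the Syp-low tumors. Snap25 and Uchl1, given above, are counted in these sums, and the median difference of the list was 0.61 log2. Of the list's 17 tested members, 2 were higher, Uchl1, which is also on the neuron-like list, and Vip. Vip, a peptide of enteric neurons, was at 2.05 to 6.09 CPM against 0 to 1.33 CPM, under the normals' 14.7 to 51.4 CPM. The summed marker list of enteric glia was lower, at 9.73 to 73.1 CPM against 148 to 274 CPM, and the part of enteric nerve tissue in the neuron-like values was not tested.

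A few hormone genes of mature stomach endocrine cells were lower. Of 19 tested hormone and monoamine genes, 1 was higher, Maoa, and 4 were lower: Sst, Ghrl, Gcg and Gch1. Over all genes 14.3% were lower. Calca, a peptide hormone gene of this list, went the other way by 3.80 log2 without meeting the rule. Its difference was 2.96 log2 without corpus 1 and greater curvature 2. Sst, somatostatin of D cells, was at 0.344 to 9.71 CPM in the Syp-high tumors, at 46.5 to 253 CPM in the Syp-low ones and at 105 to 233 CPM in the normals. Ghrl, ghrelin of X/A-like cells, was at 6.09, 8.85, 22.5 and 101 CPM against 107, 188, 267 and 414 CPM, so lesser curvature 3 came close to corpus 3. Among the tumors with Ddx3y none of the 19 met the rule and the list's median turned from -1.01 to 0.12 log2. Without corpus 1 and greater curvature 2, where 13% of all genes were lower, 8 of the 19 were lower and none higher. The median was then -1.46 log2.

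Of 25 tested genes on a list of Rest, Notch, Yap1 and other genes of non-neuroendocrine cells, 6 were lower and none higher. Rest, the repressor of neuronal genes, was at 4.43, 6.49, 18.2 and 16.9 CPM in antrum 1, lesser curvature 1, lesser curvature 3 and greater curvature 1. It was at 21.2, 34.6, 33.5 and 39.8 CPM in corpus 3, antrum 2, corpus 1 and greater curvature 2 and at 31.3 to 37.6 CPM in the normals, so the 2 tumors with the most Syp had the least Rest. Yap1, a growth coactivator absent from many neuroendocrine cancers, was at 7.38 to 36.0 CPM against 55.3 to 127 CPM, a difference of -2.35 log2. Hes1, the Notch target, was at 6.04 to 32.7 CPM against 33.9 to 83.4 CPM, a gap of little more than 1 CPM between greater curvature 1 and corpus 3. The other lower members were Lats2, Ahnak and Epha2. Among the tumors with Ddx3y none of the 25 met the rule and the median was 0.01 in place of -0.60 log2. Without corpus 1 and greater curvature 2, 6 were lower and none higher, with a median of -0.41 log2.

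Tuft cell genes, the lineage in which Cre acts, were lower in 6 of 23 tested members and higher in none. The lower ones were Avil, Sox9, Gnat3, Plcb2, Siglecf and Krt18, and Avil, an actin-bundling protein of the tuft, was at 10.6 to 46.8 CPM against 137 to 336 CPM. Pou2f3 itself was at 0.123 to 1.003 CPM against 0.379 to 2.75 CPM, and Dclk1, a kinase used as a tuft marker, was at 22.7 to 59.9 CPM against 8.33 to 30.8 CPM, both with overlap. Sox9 and Krt18 are made by other gut epithelial cells too. No member met the rule among the tumors with Ddx3y, and 5 were lower without corpus 1 and greater curvature 2. Without corpus 3, where 17.4% of all genes were lower, 11 were.

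Part of the growth genes met the rule as higher and none as lower. Myc was at 475, 765, 503 and 245 CPM in antrum 1, lesser curvature 1, lesser curvature 3 and greater curvature 1 and at 231, 163, 95.2 and 103 CPM in corpus 3, antrum 2, corpus 1 and greater curvature 2. The groups did not overlap, though greater curvature 1 and corpus 3 were close; whether transgene reads are counted under Myc is not stated. Of 22 Myc targets of ribosome production, 12 were higher, with a median of 1.02 log2. Srm, spermidine synthase, was at 243 to 339 CPM against 59.1 to 169 CPM. Of 37 DNA replication genes 7 were higher, of 25 mitosis genes 4 were, with medians of 0.73 and 0.92 log2. Over all genes 7.68% were higher. E2f1, the factor that Rb1 holds back, was at 36.9 to 46.1 CPM against 10.5 to 21.9 CPM. These counts moved with single libraries. Without corpus 3, where 12.2% of all genes were higher, 15 replication and 17 mitosis genes were. Without greater curvature 1 (10.9% of all genes) 12 and 14 were, and without antrum 2 (9.21%) 12 replication genes. Without greater curvature 2 (7.3% of all genes), 5 Myc targets and 1 mitosis gene were higher, and without corpus 1 (6.74%), 5 Myc targets. Without both of these tumors, the higher members were 3 Myc targets, 2 replication genes and no mitosis gene. Over all genes 5.11% were higher there, so the replication and mitosis counts were near or under that share. Among the tumors with Ddx3y, where 1.74% of all genes were higher, 2 Myc targets, 2 replication genes and no mitosis gene were.

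These growth genes were also tested between all 12 tumors and the normals, a comparison of label groups that the Syp ranking did not use, with edgeR's quasi-likelihood test and Benjamini-Hochberg adjustment over 16224 genes. It called 2628 genes higher (16.2%) and 2548 lower (15.7%) at an adjusted p under 0.05. All 25 mitosis genes, 36 of 37 replication genes and 20 of 22 Myc targets rose, and over the other settings and left-out libraries 25, 32 to 36 and 15 to 21 did. E2f1 rose by 2.24 ± 0.43 log2 (SE, edgeR adjusted p = 0.00469, up to 0.0256 over the alternatives), with 12 of 12 tumors above all 3 normals. Of the 33 neuroendocrine transcription factors 7 rose and 1 fell, and 1 to 10 rose over the alternatives. Without normal 1, 2 or 3 alone, 4, 1 or 2 rose. Onecut2, a factor of foregut and neuroendocrine cells that differed by -0.01 log2 between the Syp groups, was among those that rose (edgeR adjusted p = 0.00053). Insm1 did not pass and had a fold change of 2.80 ± 1.12 log2 (SE, edgeR adjusted p = 0.0732, 0.00456 to 0.204 over the alternatives), with 10 of 12 tumors above all normals. Nor did Cplx1 pass, with 3.21 ± 1.28 log2 (SE, edgeR adjusted p = 0.0714, 0.00262 to 0.202 over the alternatives), again with 10 of 12 tumors above all normals. Of the vesicle list 12 rose and 7 fell and of the neuron-like list 14 rose and 1 fell, but fewer rose when any 1 normal was left out. Without normal 1, 2 or 3, 2, 1 or 1 vesicle genes and 8, 2 or 3 neuron-like genes rose.

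**Figure D4:**
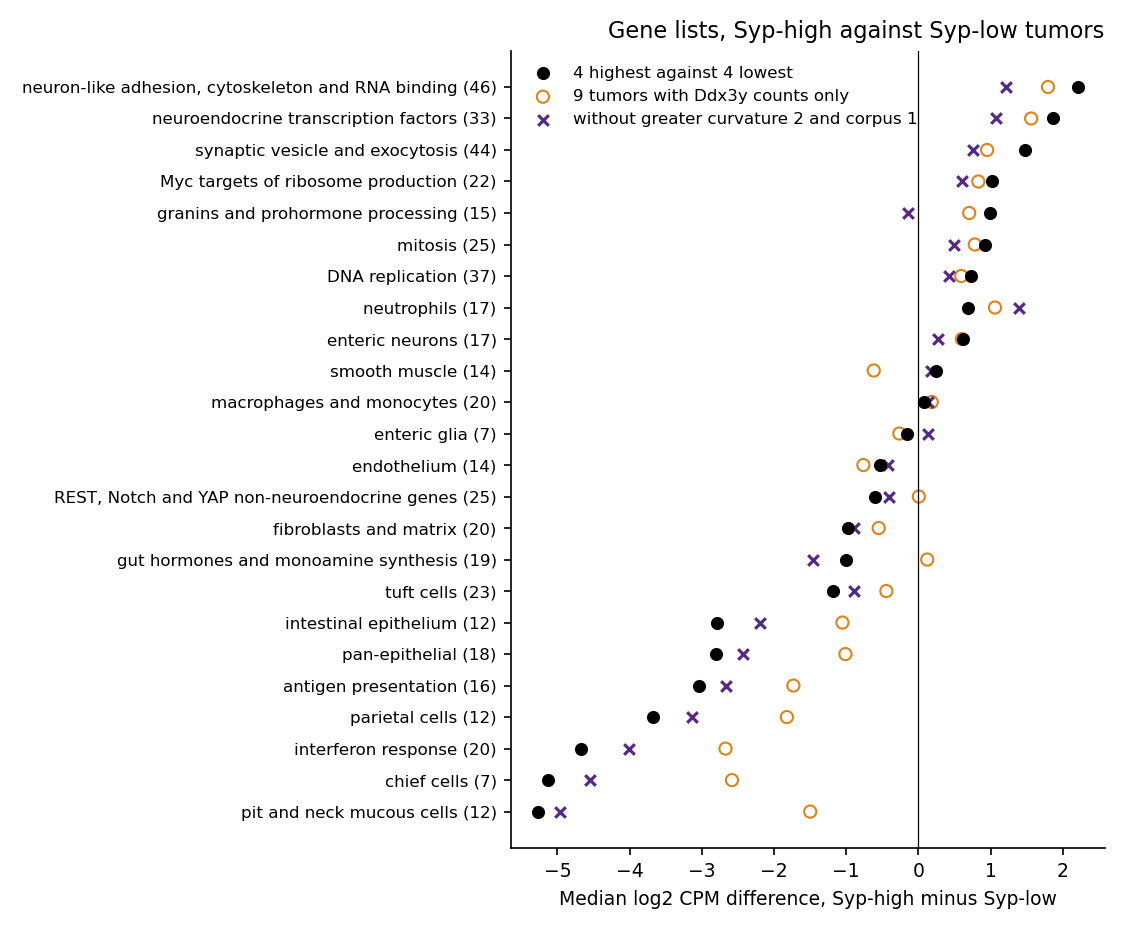
Median log2 CPM difference, Syp-high minus Syp-low, over the tested members of 24 gene lists (number tested in parentheses), for the 8 tumors (black), for the 9 tumors with Ddx3y counts ranked anew (open) and without greater curvature 2 and corpus 1 (crosses). Neuron-like genes have the highest median at 2.21 and pit and neck mucous cells the lowest at -5.27, and the interferon median of -4.68 is -2.67 among the tumors with Ddx3y.

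Many genes of gastric epithelium were lower in the Syp-high tumors. Of 7 antral gland markers none met the rule, with a median of -2.52 log2. Their sums overlapped at 25.6 to 108 CPM against 63.1 to 246 CPM. Of 12 tested markers of pit and neck mucous cells 8 were lower, of 7 chief cell markers 4, of 12 parietal cell markers 9, of 12 intestinal markers 6 and of 18 pan-epithelial markers 13, and none of these was higher. Muc5ac, the mucin of surface cells, was at 28.8, 5.80, 310 and 182 CPM in antrum 1, lesser curvature 1, lesser curvature 3 and greater curvature 1. It was at 6522, 7303, 15172 and 8263 CPM in corpus 3, antrum 2, corpus 1 and greater curvature 2, a difference of -7.30 log2. Pgc, the pepsinogen of chief cells, was at 2.06 to 1617 CPM against 4450 to 77368 CPM. Atp4a, the proton pump of parietal cells, was at 12.2 to 123 CPM against 579 to 4177 CPM. Of the genes the naming rule brought up, the lowest was Clca1, a secreted protein of mucous cells, at 0.0983 to 2.09 CPM against 60.2 to 2230 CPM, a difference of -9.19 log2.

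General epithelial genes were lower too. Cdh1, E-cadherin of epithelial junctions, was at 41.2 and 27.3 CPM in antrum 1 and lesser curvature 1, at 234 and 346 CPM in lesser curvature 3 and greater curvature 1, and at 716 to 1594 CPM in the Syp-low tumors. The normals lay at 771 to 1411 CPM. The pan-epithelial list summed to 305 to 3278 CPM in the Syp-high, 3528 to 8948 CPM in the middle and 5667 to 13288 CPM in the Syp-low tumors. Among the 9 tumors with Ddx3y 1 of the 18 was lower and the median was -1.01 in place of -2.81 log2, and for mucous cells 2 of 12 were lower with -1.50 in place of -5.27 log2. There 1 of 12 parietal, 1 of 7 chief cell and none of 12 intestinal markers were lower, where 2.35% of all genes were. Without corpus 1 and greater curvature 2 the counts were again 13 of 18 for pan-epithelial and 8 of 12 for mucous cell markers. They were also again 9 for parietal, 4 for chief cell and 6 for intestinal markers.

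Interferon response genes, which are not markers of one cell type, were nearly all lower in the Syp-high tumors. Of 20 tested members 17 were lower and none higher, with a median of -4.68 log2, and only Ifit2, Cxcl9 and Cxcl10 did not meet the rule. Isg15, a ubiquitin-like protein made under interferon, was at 0.430, 0.491, 1.86 and 1.25 CPM in antrum 1, lesser curvature 1, lesser curvature 3 and greater curvature 1. It was at 51.4, 60.2, 270 and 71.4 CPM in corpus 3, antrum 2, corpus 1 and greater curvature 2 and at 6.47, 65.2 and 18.7 CPM in the normals. No Syp-high tumor came near a Syp-low one, and all 4 were under the lowest normal. Oas2, a sensor of double-stranded RNA, was at 0.147 to 10.5 CPM against 176 to 481 CPM, a difference of -7.10 log2. Apol9a and Apol9b, interferon-induced lipid-binding proteins that are near copies of each other and may share reads, stood among the 12 genes at the lower extreme with Isg15 and Oas2.

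The list summed to 49.2 to 113 CPM in the Syp-high, 141 to 1146 CPM in the middle, 1101 to 4341 CPM in the Syp-low and 424 to 1779 CPM in the normal samples. In the test of all tumors against normal 1 of the 20 rose and none fell, and Isg15 had a fold change of -0.05 ± 1.40 log2 (SE, edgeR adjusted p = 0.982, 0.376 to 1 over the alternatives), with 2 of 12 tumors above and 5 below all normals. Among the 9 tumors with Ddx3y, where 2.35% of all genes were lower, 7 of the 20 were lower, Isg15 and Ifi44 included. The list's median there was -2.67 log2, and Isg15 differed by -3.70 log2. Without corpus 1 and greater curvature 2 17 of the 20 were lower, with a median of -4.01. The pan-epithelial sum moved with the interferon genes as given above, and its part in them was not tested.

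Antigen presentation genes, many of which interferon also induces, were lower in 13 of 16 tested members and higher in none, with a median of -3.04 log2. Tap1, the transporter that loads peptides onto MHC class I, was at 3.81, 1.28, 5.25 and 24.9 CPM in antrum 1, lesser curvature 1, lesser curvature 3 and greater curvature 1. It was at 54.3, 55.6, 161 and 69.6 CPM in corpus 3, antrum 2, corpus 1 and greater curvature 2 and at 25.4 to 65.8 CPM in the normals. H2-Aa, a chain of MHC class II made mainly by antigen-presenting cells, was at 1.28 to 7.98 CPM against 32.0 to 44.7 CPM. Only Psmb10, Nlrc5 and H2-DMa did not meet the rule. The list summed to 324 to 1716 CPM against 3209 to 6735 CPM, and among the tumors with Ddx3y 3 of the 16 were lower. Without corpus 1 and greater curvature 2, 13 were lower.

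The promoters of interferon genes carry the element through which the factor ISGF3 acts, so the 250 bases before the transcription start in RefSeq's GRCm38.p6 table were searched on both strands for its core letters, TTTCNNTTTC, where N is any base. The motif lay in 8 of the 12 lower interferon genes with a window (66.7%). It lay in 9 of the 15 tested interferon genes with a window (60.0%), so its share is that of the list. It also lay in 3.24% of the 12113 tested genes with a window, in 5.76% of the lower and 2.68% of the higher genes. Of all 32851 windows, 2.98% held it. In the sequences, printed 5′ to 3′ on the gene's strand, capitals mark the matches. Isg15, on the minus strand at chr4:156200819-156201068, has 3 overlapping matches close to its start, read on the opposite strand. Ifit1, an RNA-binding protein of the same response, on the plus strand at chr19:34640639-34640888, has 2 matches.
Isg15: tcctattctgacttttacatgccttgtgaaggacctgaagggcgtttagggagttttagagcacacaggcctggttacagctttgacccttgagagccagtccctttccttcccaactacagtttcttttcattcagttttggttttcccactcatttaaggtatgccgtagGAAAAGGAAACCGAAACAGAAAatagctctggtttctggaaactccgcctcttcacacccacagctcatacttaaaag
Ifit1: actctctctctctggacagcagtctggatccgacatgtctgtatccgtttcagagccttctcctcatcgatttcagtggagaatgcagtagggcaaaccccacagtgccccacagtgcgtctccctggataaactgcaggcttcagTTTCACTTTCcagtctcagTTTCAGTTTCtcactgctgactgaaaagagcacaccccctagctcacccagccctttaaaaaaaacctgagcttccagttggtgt

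Ifit1, like Isg15, was near 0 in the Syp-high tumors: it was at 0.369 to 2.34 CPM there, at 45.8 to 314 CPM in the Syp-low tumors and at 17.0 to 94.6 CPM in the normals. A match is a string of letters and says nothing of binding in these tissues.

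The 43 higher genes of the vesicle, transcription factor and neuron-like lists were searched in the same way for CAGCTG and CAGATG, E-boxes that neural helix-loop-helix factors can bind. Of the 33 with a window, 9 held CAGCTG (27.3%, against 14.5% of tested genes) and 8 held CAGATG (24.2%, against 12.7%). Over all higher genes the shares were 13.8% and 14.5%, and over all lower genes 17.1% and 13.1%. Cplx1 (minus strand, chr5:108550028-108550277) holds CAGCTG once, and Nhlh2 (plus strand, chr3:102009895-102010144), whose product is itself such a factor, holds CAGATG once, each in capitals.
Cplx1: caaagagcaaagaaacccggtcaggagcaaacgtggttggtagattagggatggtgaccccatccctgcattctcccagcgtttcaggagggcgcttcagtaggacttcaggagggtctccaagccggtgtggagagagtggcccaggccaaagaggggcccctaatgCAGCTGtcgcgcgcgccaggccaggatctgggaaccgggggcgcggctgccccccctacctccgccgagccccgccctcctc
Nhlh2: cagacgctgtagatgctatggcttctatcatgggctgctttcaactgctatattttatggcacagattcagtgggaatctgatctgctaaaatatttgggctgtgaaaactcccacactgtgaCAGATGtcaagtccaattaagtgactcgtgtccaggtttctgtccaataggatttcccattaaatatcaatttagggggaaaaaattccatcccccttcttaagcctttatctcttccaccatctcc

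**Figure D5:**
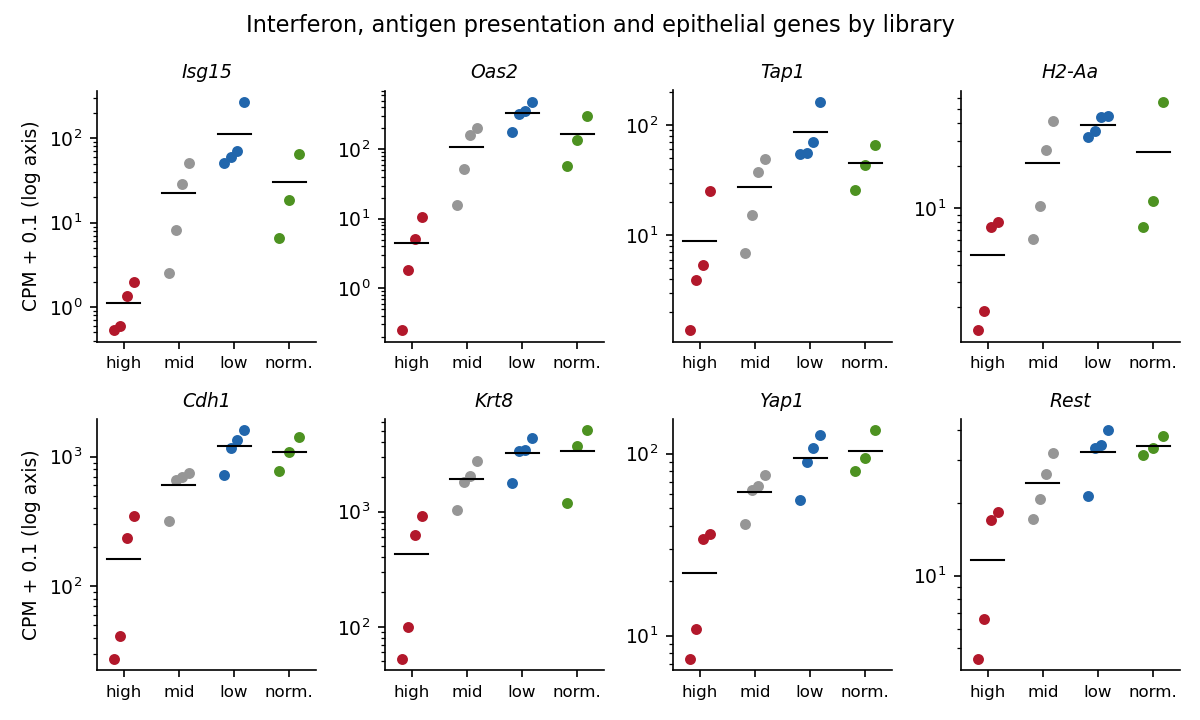
CPM plus 0.1 (log axis) of 8 genes in each library of the 4 Syp-high, 4 middle, 4 Syp-low and 3 normal samples; each dot is a library and each line a group mean. All 8 are lower in every Syp-high tumor than in every Syp-low tumor, with Isg15 at 0.430 to 1.86 against 51.4 to 270 CPM.

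Other cell types of the tissue differed less. Over all genes 7.68% were higher and 14.3% lower in the 8 tumors. The endothelial, smooth muscle, macrophage and neutrophil counts for these 8 tumors were near or under those shares. Of 20 fibroblast and matrix genes 6 were lower, and none among the tumors with Ddx3y. The count was 3 without greater curvature 2 and 11 without corpus 1, where 13.9% and 14.1% of all genes were lower. Pdgfra, the receptor that marks fibroblasts, was at 6.39 to 31.4 CPM against 48.9 to 131 CPM. Col1a1, a collagen chain, overlapped, with greater curvature 2 at 2769 CPM and the other Syp-low tumors at 205 to 560 CPM. Of 14 endothelial genes 2 were lower, and 5 without greater curvature 1, where 17.3% of all genes were lower. Among the 2 was Kdr, the VEGF receptor, at 7.21 to 18.9 CPM against 27.0 to 35.9 CPM, which was also lower among the tumors with Ddx3y. Of 14 smooth muscle genes 1 was lower, and the median of 0.24 log2 turned to -0.62 among the tumors with Ddx3y.

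Of 17 neutrophil genes 1 was higher and none lower, with a median of 0.69 log2, but the count rested on single libraries. It was 8 without greater curvature 2, 6 without antrum 1 and 7 without greater curvature 2 and corpus 1, where the median was 1.40. Over all genes 7.3%, 7.64% and 5.11% were higher in these settings. Of 20 macrophage genes 1 was higher and 2 were lower, and the list summed to 500 to 808 CPM against 475 to 589 CPM. Of 8 B and plasma cell genes 1 was higher and 2 were lower, with a median of -1.52 log2 that was 0.03 among the tumors with Ddx3y. None of 11 mast cell genes met the rule, though their median was -3.07 log2 and 2 of the 11 differences were above 0, and none of 3 T and NK cell genes did. Of the 7 CXCR2 ligand and receptor genes, the chemokine axis of neutrophils named in the study's title, none met the rule. Cxcl5, the ligand in question, was at 0.553 to 14.7 CPM in the Syp-high tumors and at 5.93, 6.53, 7.62 and 89.9 CPM in the Syp-low ones, greater curvature 2 standing apart. Cxcl5 rose in all tumors against normal by 5.71 ± 1.31 log2 (SE, edgeR adjusted p = 0.00901, up to 0.0404 over the alternatives), with 12 of 12 tumors above all normals. The engineered genes Rb1 (23.3 to 37.5 against 30.4 to 47.2 CPM) and Trp53 (24.0 to 70.5 against 28.4 to 46.6 CPM) overlapped between the groups.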

How the data were processed

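RNA was sequenced as paired-end 100 bp reads on an Illumina NovaSeq instrument, per the labels' protocols. The submitters' processing notes name bcl2fastq 2.19, kallisto 0.44.0, sleuth, DESeq2 and GRCm38.p6, without the role of each. The authors deposited estimated counts per gene symbol, as whole numbers that were used unrounded, for 36144 symbols. Their other table is named for FPKM, but each deposited column sums to 1e+06, so it was read as TPM. How transcripts were summed to genes is not stated there.

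The sample labels gave the groups and the replicate numbers. Genes were kept by filterByExpr of edgeR 4.0.16 (R 4.3.3, minimum count 10), library sizes scaled by TMM, and log2 CPM given with a prior count of 2. Differences between Syp-high and Syp-low tumors are means of log2 CPM over 4 libraries a side, with no test. All tumors were tested against normal with edgeR's quasi-likelihood test (robust), the mean of the 4 site groups minus normal over 15 libraries, and Benjamini-Hochberg adjustment at 0.05. The procedure was tested on simulated counts. One count stands for 0.0478 to 0.112 CPM, so values near that level rest on single counts, and these limits cover counting error only. Coordinates are GRCm38; promoters are RefSeq's.

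The members, the 42 gene lists (729 distinct genes) and the tests were chosen with earlier results of these data known. Named genes are 20 fixed ones, the 12 largest differences each way among genes past the rule with a mean of at least 10 CPM, and up to 4 per list with a mean of at least 1 CPM. Other genes were named as list members past the rule, or after their values were seen, and results for some are not reported here. Alternatives were DESeq2 1.42.0 and its size factors, column totals, the TPM table (limma 3.58.1, log2 of TPM plus 1), no filter, other group sizes, rankings, folds and prior counts, a replicate block, each site alone, and leaving out each library. Ranking the 9 tumors with Ddx3y was added after the data were seen.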

Additional observations from a re-analysis of the deposited data

Results flagged for a closer look

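In 9 of 208 groups of 4 libraries 1 library lay far from the other 3 by Dixon's test, and chance alone gives about 1 in 20. In the Syp-high tumors, greater curvature 1 stood apart in Trp53 at 70.5 CPM, antrum 1 in E2f1 at 46.1 CPM, and lesser curvature 3 in the Y-linked Ddx3y at 51.5 CPM. In the Syp-low tumors, antrum 2 stood above its group in 3 neuronal genes: Lamp5 at 2.04 CPM, Nhlh2 at 24.1 CPM and Nhlh1 at 1.52 CPM. Greater curvature 2 was high in Cxcl5 at 89.9 CPM, corpus 1 in the immunoproteasome gene Psmb9 at 55.2 CPM, and corpus 3 was low in Ahnak, a scaffold protein gene, at 393 CPM.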

How the results depend on the processing

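The counts of higher and lower genes, 1246 and 2325, moved with the fold, the scaling and the tumors compared. A larger fold and more tumors a side make the rule stricter, so the lower counts there follow at least in part from the rule itself. Higher genes were 2280 at 1.5-fold, 343 at 4-fold, 2376 with 3 tumors a side, 410 with 5 a side, 2325 by column totals, 829 without greater curvature 2 and corpus 1, and 283 among the 9 tumors with Ddx3y. Lower genes were 1180 at 4-fold, 571 with 5 a side, 1530 in the TPM table, 1139 with tumors ranked by TPM and 382 among the tumors with Ddx3y. Leaving out 1 library gave 1094 to 1984 higher genes, the most without corpus 3.

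These list medians changed direction. Among the tumors with Ddx3y, gut hormones turned to 0.12, the REST, Notch and YAP list to 0.0052 and smooth muscle to -0.62. Granins turned to -0.23 within the antrum and to -0.15 without greater curvature 2 and corpus 1, and macrophages to -0.37 within the greater curvature. Medians near 0 also crossed it by less than the spread between libraries: enteric glia (-0.16) to 0.09 by column totals, 0.11 without greater curvature 2 and 0.13 without corpus 1 as well, macrophages (0.08) to -0.05 without lesser curvature 1 and -0.03 with 5 a side, smooth muscle (0.24) to -0.07 ranked by TPM, and neutrophils to -0.07 within the greater curvature. Medians that moved without turning among the tumors with Ddx3y were tuft cells at -0.44, pan-epithelial at -1.01, mucous cells at -1.50, parietal cells at -1.82, chief cells at -2.58, intestinal epithelium at -1.05, interferon response at -2.67 and antigen presentation at -1.73. Without greater curvature 2 and corpus 1 they were synaptic vesicles at 0.76, neuron-like genes at 1.22, DNA replication at 0.43, Myc targets at 0.61 and enteric neurons at 0.27. Within the antrum they were transcription factors at 0.87, tuft cells at -1.88, pan-epithelial at -4.70, intestinal epithelium at -3.91, enteric neurons at 1.05 and enteric glia at -1.35. Within the greater curvature they were gut hormones at -0.22, neuron-like genes at 3.10, chief cells at -2.76 and antigen presentation at -1.48. By column totals DNA replication was at 1.05 and macrophages at 0.39. In the TPM table they were DNA replication at 1.03, intestinal epithelium at -1.43, interferon response at -3.64, endothelium at -0.18 and macrophages at 0.31. With 3 a side they were intestinal epithelium at -3.83, enteric neurons at 0.99 and macrophages at 0.36; with 5 a side, enteric neurons at 0.95; ranked by TPM, gut hormones at -0.34 and enteric neurons at 1.13. Leaving out 1 library, the enteric neuron median ran from 0.42 to 0.97. The causes were not tested.

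For all tumors against normal, leaving out 1 library gave 1163 to 3389 higher and 1317 to 3479 lower genes, the fewest without normal 3 and without normal 1. Limma on TPM gave 5739 and 551, and DESeq2 3587 and 3103. A block for the replicate number gave 2896 higher and 2851 lower genes; residuals of same-numbered libraries correlated at -0.57 to 0.69 (median 0.17) and of others at -0.73 to 0.64 (median -0.07), so the numbers were not taken to pair the samples.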

Other observations

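Beyond the lists of the report, 6 of 19 immediate early genes were lower in the Syp-high tumors and none higher, with a median of -0.79 log2. Their sum was 554 to 918 CPM against 1169 to 2389 CPM, and 1504 to 3121 CPM in the normals. Among the tumors with Ddx3y no member met the rule. Squamous markers, whose level depends on how much of the forestomach a sample holds, had 1 of 20 members lower and none higher. Yet their median was 1.84 log2, and 15 of the 20 differences were above 0. Their sums overlapped at 17.0 to 1905 CPM against 599 to 2212 CPM. Of 5 adipocyte markers 2 were lower, at a sum of 92.4 to 133 CPM against 244 to 544 CPM.

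The limits are those of a ranking made on the data. Groups of 4 chosen by a measured gene carry no test. The Y-linked message, the replicate number and gastric epithelial content move in part with Syp, and their part in the differences was not tested. Sites are unequal, with 2 lesser curvature tumors among the Syp-high and 2 corpus tumors among the Syp-low. Only antrum and greater curvature hold both groups, as 1 pair each. Differences of genes near 1 CPM rest on a few counts and depend on the prior count.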
